A study of Homo sapiens with 18 samples.

Results

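The cytosolic ribosomal protein genes encode the proteins of the ribosomes that translate messenger RNA in the cytoplasm. Members were all symbols made of RPL and a number, with or without a following A, X or L and a further number. Symbols of RPS and a number, with or without a closing A or X, were also taken, together with RPLP0, RPLP1, RPLP2 and RPSA. Paralogs with an L directly after the RPL number were thus included, but not RPS symbols closing in L or RPL symbols closing in AL. Pseudogenes and the RPS6K kinases were left out. The rule took 83 genes, 52 of the large subunit and 31 of the small subunit, of 72147 symbols found in either of the count tables. All 83 were present in both tables and are protein-coding in GENCODE release 29, on 21 chromosomes. RNA had been counted in 18 libraries titled MDA-MB-436, an established human triple-negative breast cancer line, in 8 groups. The series asks how SMARCAL1, a DNA translocase that anneals single strands and reshapes stalled forks, bears on innate immune signalling and PD-L1. The TruSeq libraries, made from total RNA, covered SMARCAL1 knockout clone 1 and a control, with 3 biological replicates each. The PLATE-seq libraries, from a pooled plate assay of messenger RNA, covered SMARCAL1 knockout clones 1, 2 and 3 with their control, and siRNA_SMARCAL1 with siRNA_Control, with 2 biological replicates each.

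Each knockout group is 1 clone, so an effect of the knockout and a trait of the clone cannot be told apart within it. The labels give neither the means of disruption nor the making of the control, and all groups share the same serum-supplemented growth medium. For the PLATE-seq samples the cell line field counts up, starting at MDA-MB-437 and ending at MDA-MB-448, whereas every title has MDA-MB-436. The titles were followed here. The replicates are called biological by their titles, with nothing on separate cultures, so p-values measure only the spread between these libraries.

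Most ribosomal proteins are present in a single copy per ribosome, and their genes are transcribed at high and coordinated levels in growing cells. Their messenger RNAs typically begin with a C followed by a run of pyrimidines, the 5′ terminal oligopyrimidine (TOP) tract, through which mTOR signalling controls their translation. Several members have further known roles. RPL5 and RPL11 bind and inhibit MDM2 when ribosome assembly fails, RPS6 is the classical substrate of the S6 kinases, and RPLP0, RPLP1 and RPLP2 form the stalk that recruits translation factors. A few genes have paralogs of narrower or lower expression, among them RPL3L, RPL10L, RPL22L1, RPL26L1 and RPL39L.

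Totals ran from 10257584 to 19270648 counts in the TruSeq libraries and from 807861 to 3068887 in the PLATE-seq libraries. SMARCAL1 transcripts were not depleted in the knockout libraries, with 144, 254 and 211 counts in the TruSeq libraries of clone 1 and 163, 174 and 292 in their control. In PLATE-seq SMARCAL1 had 3 and 6 counts in clone 1, 8 and 3 in clone 2, 16 and 44 in clone 3, and 0 and 3 in the control. It had 0 and 0 counts with siRNA_SMARCAL1 and 7 and 8 with siRNA_Control. A disrupted gene can keep its transcript, so these counts do not test the genotype. The TruSeq libraries fell on either side of a gap in the number of features detected. Knockout replicate 1 and control replicates 1 and 2 had 36042 to 39068 features and 0.637% to 0.891% of their counts on mitochondrially encoded genes. Knockout replicates 2 and 3 and control replicate 3 had 28621 to 30653 features and 0.302% to 0.370%. In PLATE-seq that mitochondrial share was 24.6% in clone 3 replicate 2 and 28.8% to 34.3% in the other libraries. VIM, a mesenchymal marker of this line, stood at 950 to 1387 CPM in TruSeq and 186 to 467 CPM in PLATE-seq, where CPM is counts scaled to a library of 1e+06 after TMM scaling. The luminal receptor ESR1 was at 0.965 CPM or less in TruSeq and at 0 in PLATE-seq, and the leukocyte marker PTPRC was at 2.68 CPM or less in TruSeq and at 0 in PLATE-seq. The summed level of 8 leukocyte genes was 24.2 to 36.4 CPM in TruSeq and 0.869 to 12.3 CPM in PLATE-seq, and that of 8 endothelial genes 2.83 to 12.5 and 0 to 4.12 CPM. The 12 basal genes summed to 2497 to 2879 CPM in TruSeq and 854 to 1617 CPM in PLATE-seq, and the 12 luminal genes to 1183 to 1807 and 98.0 to 235 CPM.

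Ribosomal protein messages made up a slightly smaller part of the TruSeq libraries of knockout clone 1 than of the control. The 83 members together held 5.04%, 5.07% and 5.37% of the counts in the knockout libraries, against 5.29%, 5.56% and 5.56% in the control libraries. The groups overlapped, since knockout replicate 3 lay above control replicate 1. In PLATE-seq the share was 7.90% and 8.32% in clone 1, 7.97% and 7.85% in clone 2, 9.48% and 11.03% in clone 3, and 8.30% and 8.60% in the control. Clone 3 was above both control libraries, clone 2 below both, and clone 1 overlapped them. With siRNA_SMARCAL1 it was 8.91% and 8.61%, within the 9.12% and 8.48% of siRNA_Control. The clone 3 difference of 1.80 percentage points was 1.03 without its replicate 2. Without mitochondrially encoded genes in the totals, the share was 14.08% and 14.64% in clone 3 and 12.16% and 12.33% in the control. These are shares of bulk libraries, in which a change of the members and an opposite change of other genes' counts cannot be told apart. Nor can a change in some cells be told from a change in all.

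**Figure D1:**
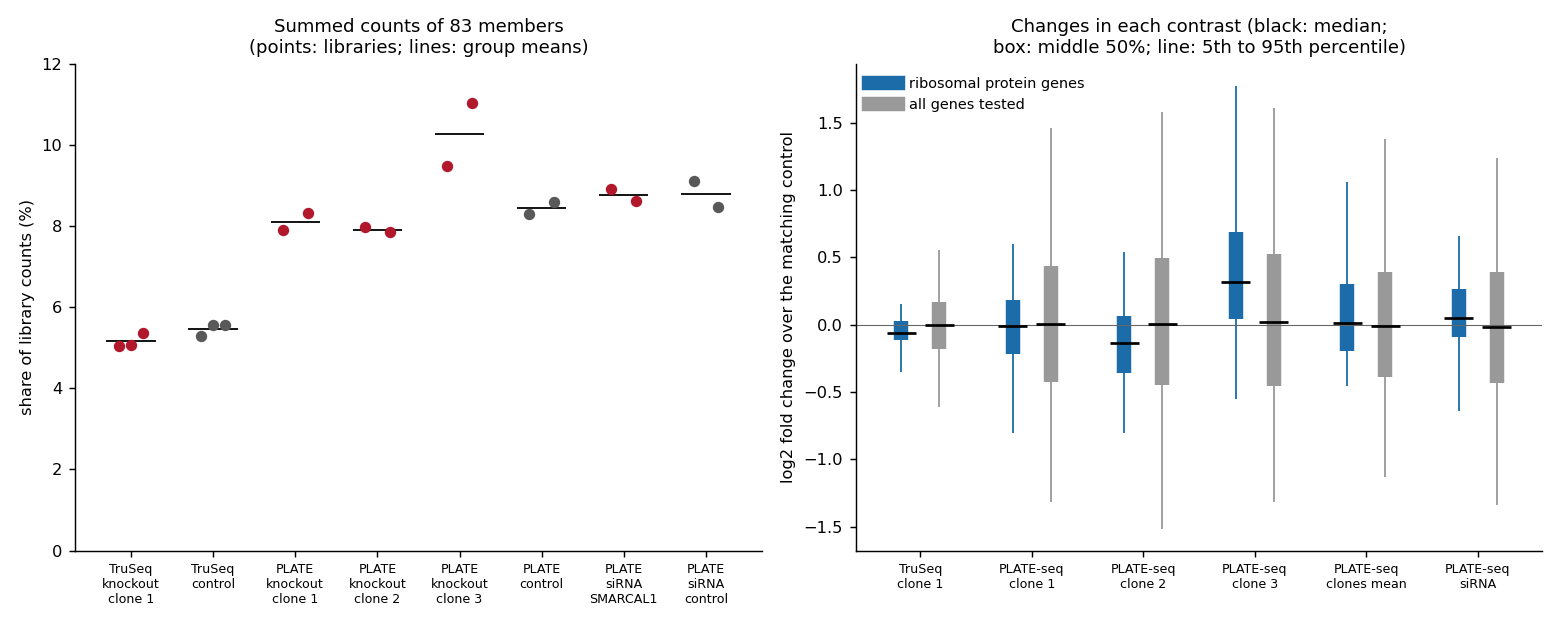
Left, summed counts of the 83 members in percent of the counts of each library, with points for libraries and lines for group means. Right, log2 fold changes over the matching control for the members and for all genes tested, with the median, the middle 50% and the 5th to 95th percentile. Clone 3 holds the highest shares, 9.48% and 11.03%, and the highest member median, 0.32.

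The makeup of that share differed between the assays. In TruSeq the counts were spread over many members, and 20 to 21 of them held 50% of the member counts of a library. Per kilobase of the shortest principal transcript, the TruSeq level of RPL8, a large-subunit protein, was 2647 CPM, and that of the small-subunit protein RPS7 was 2398 CPM. RPLP0, the stalk base, stood at 1775 CPM per kilobase. In PLATE-seq 6 to 9 members held 50% of the member counts. RPL37, a small zinc-binding protein of the large subunit, took 11563 to 16895 CPM over the 12 PLATE-seq libraries, against 917 to 1205 CPM over the 6 TruSeq libraries. RPL37 alone supplied 12.96% to 17.4% of the member counts in PLATE-seq and 1.83% to 2.18% in TruSeq.

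At the other end, PLATE-seq held almost no counts of some members that were abundant in TruSeq. Of 78 members with a mean of at least 100 CPM in TruSeq, 15 had under 20 CPM in PLATE-seq, and these 15 stood at 183 to 1184 CPM in TruSeq. RPL17 had 1 count in all 12 PLATE-seq libraries together and 42460 counts in the 6 TruSeq libraries. RPS26 had 9 counts in PLATE-seq against 15614 in TruSeq, RPL7 had 17 against 101085, and RPS3A had 67 against 100119. RPL3, RPL36A, RPL9, RPS27 and RPL21 were also at means of 2.72 to 6.02 CPM in PLATE-seq. A low PLATE-seq value of these genes is thus a property of the assay's counts in every group, and no loss of expression in a group. The TruSeq table carried 1149 entries named as pseudogenes of members. The 15 low members had a median of 17 such entries, from 1 to 66, and the other 63 had a median of 7, from 0 to 91. Over the 78 members, the ratio of PLATE-seq to TruSeq level had a Spearman rho of -0.36 with the number of entries. RPL23A with 91 entries and RPSA with 74 were counted at means of 198 and 390 CPM in PLATE-seq. These were 0.449 and 0.429 of their TruSeq means. Whether reads shared with pseudogenes lowered these counts was not tested. Across the 83 members the order of levels in the assays was only loosely related, with a Spearman rho of 0.24 across genes, which are not independent replicates.

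**Figure D2:**
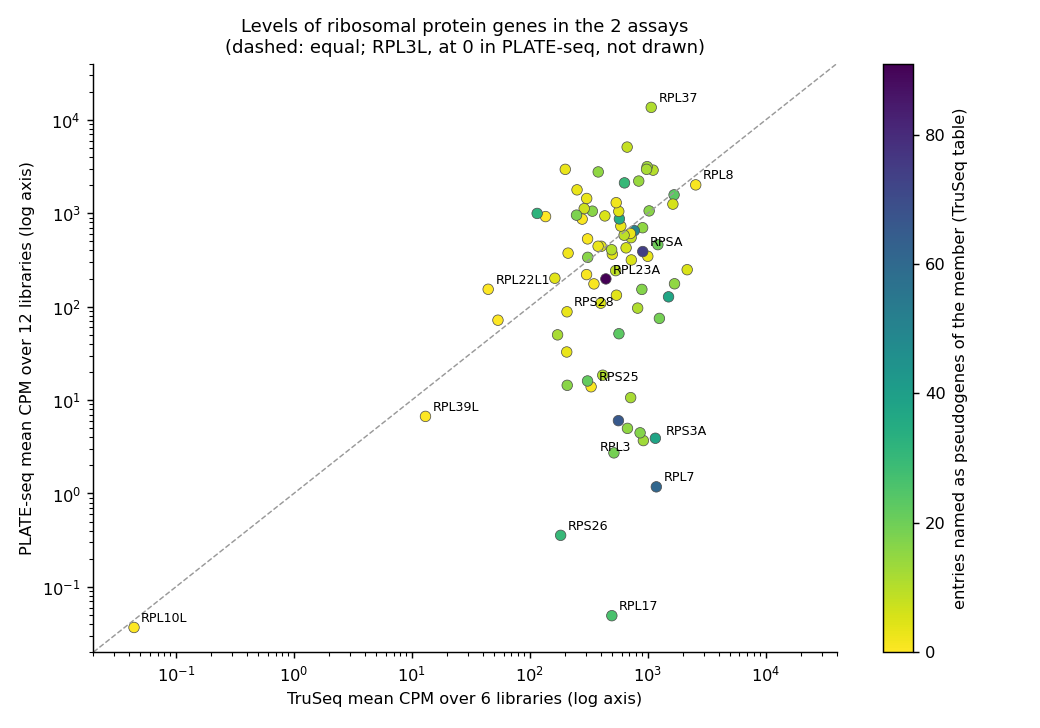
Mean CPM of the members reported here in PLATE-seq against TruSeq, on log axes, coloured by the number of entries named as its pseudogenes. RPL37 lies far above the line of equal levels, and RPL17, RPS26 and RPL7 far below it. RPL3L had 0 counts in PLATE-seq and is not drawn.

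In 3 cases a TruSeq level was shared with a read-through gene that contains the member. RPL17 had 97.0% to 98.7% of the counts of RPL17-C18orf32, RPL36A 95.4% to 98.01% of those of RPL36A-HNRNPH2, and RPS10 88.8% to 92.1% of those of RPS10-NUDT3. The levels of these members in TruSeq are therefore uncertain.

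The paralogs separated by level. RPL3L, the heart and muscle form of RPL3, had 12 counts in all TruSeq libraries and 0 in PLATE-seq. RPL10L, a testis form of RPL10, had 3 counts and 1 count. RPL39L, which replaces RPL39 in male germ cells and is found in many tumour lines, was expressed, at 11.4 to 16.4 CPM in TruSeq and 1.03 to 17.7 CPM in PLATE-seq. RPL26L1 lay at 44.4 to 62.1 CPM in TruSeq, and RPL7L1, a nucleolar assembly protein related to RPL7, at 160.0 to 190.8 CPM. RPL3L and RPL10L did not pass the filter on low counts in either assay.

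The TruSeq comparison of knockout clone 1 with its control showed a modest fall of a few members. Of 81 members tested, 5 fell and 0 rose (edgeR quasi-likelihood test, adjusted p under 0.05 over 17371 genes), where 2.31% of all genes fell and 3.96% rose. They included RPL22L1, RPL24 and RPL7 of the large subunit and RPS3A of the small subunit. With no adjustment, 9 members were lower at p under 0.05 and 0 were higher, against 9.23% of all genes lower and 11.1% higher. The median log2 fold change of the members was -0.06, against -0.004 over all genes, and 55 of the 81 were below 0. That median was above 0 without knockout replicate 1 (0.007) or control replicate 3 (0.016). The large-subunit median was -0.06 (50 genes) and the small-subunit median -0.06 (31 genes).

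RPL22L1, the paralog of the RNA-binding large-subunit protein RPL22, had the largest fall among the members. Its levels were 34.1, 35.2 and 37.8 CPM in the knockout libraries, against 49.2, 54.9 and 55.5 CPM in the control libraries. All 3 knockout libraries were below all 3 control libraries, with a log2 fold change of -0.58 (SE 0.08, edgeR adjusted p = 0.00640). RPL22 itself passed no test in TruSeq.

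RPL24, a large-subunit protein at the interface of the subunits, had 450, 461 and 502 CPM in the knockout libraries and 588, 626 and 636 CPM in the control libraries (log2 fold change -0.39, SE 0.07, edgeR adjusted p = 0.0170). RPL7, a large-subunit protein encoded on chromosome 8, had 1048, 973 and 1057 CPM in the knockout, against 1313, 1392 and 1322 CPM in the control (-0.39, SE 0.07, edgeR adjusted p = 0.0152). The groups did not overlap for either gene. RPS3A, on the platform of the small subunit, had 988, 1016 and 1061 CPM in the knockout and 1240, 1289 and 1377 CPM in the control (-0.35, SE 0.07, edgeR adjusted p = 0.0255). Again no knockout library reached a control library for RPS3A. In GENCODE coordinates on GRCh38, RPL22L1 (ENSG00000163584.17) lies on chromosome 3 at 170864875 to 170870483, RPL24 (ENSG00000114391.12) on chromosome 3 at 101681091 to 101686782 and RPS3A (ENSG00000145425.9) on chromosome 4 at 151099573 to 151104652. RPS3A holds the small nucleolar RNA gene SNORD73A in its span and overlaps SH3D19 on the other strand. The strand setting of the counting is not given in the sources used here, so the counts of such overlapping genes are uncertain. RPL7 and RPS3A have 61 and 38 entries named as pseudogenes. With the counts of those entries added, 5 members fell. Without control replicate 2, 0 members passed the threshold, with edgeR adjusted p from 0.0673 for RPL22L1 to 0.141 for RPS3A among these 4 genes, while their log2 fold changes kept their sign in every omission of 1 library.

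**Figure D3:**
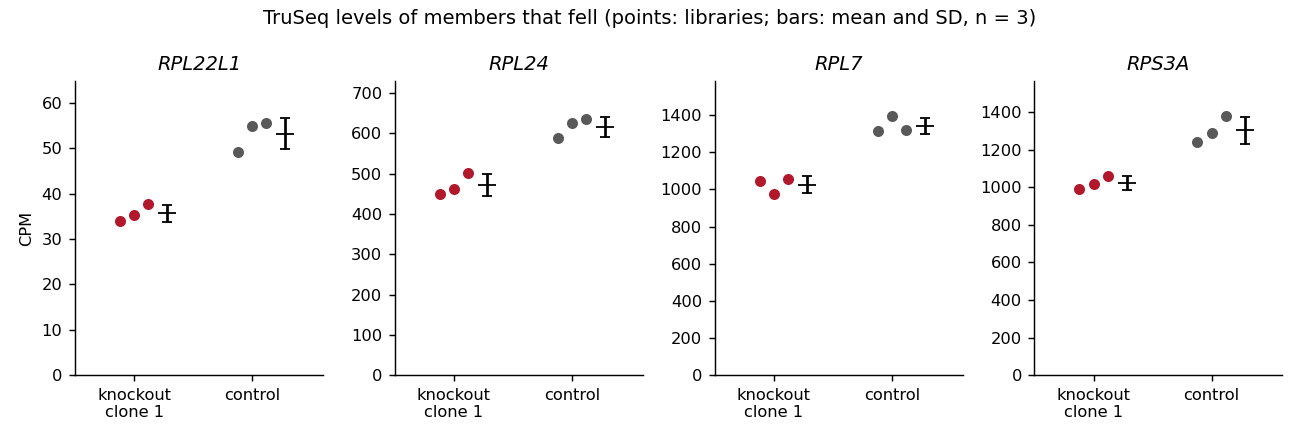
TruSeq CPM of RPL22L1, RPL24, RPL7 and RPS3A, which fell, with a point for each library and the mean and SD of 3 libraries. In each panel the 3 knockout libraries lie below the 3 control libraries, as for RPL22L1 with 34.1 to 37.8 against 49.2 to 55.5 CPM.

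For 16 members all knockout libraries were below all control libraries, where 12.7% of all genes behaved so, and for 2 members, RPS27 among them, all were above, against 13.6% of all genes. The 16 included the stress-signalling protein RPL5, with 567, 538 and 564 CPM in the knockout and 603, 589 and 592 CPM in the control (log2 fold change -0.10, SE 0.06, edgeR adjusted p = 0.438). RPL11, its partner at MDM2, overlapped between the groups, with 592, 529 and 581 CPM in the knockout and 609, 657 and 583 CPM in the control (-0.12, SE 0.08, adjusted p = 0.439). RPS6 was level, with 1012, 949 and 1021 CPM in the knockout and 956, 1013 and 984 CPM in the control (0.01, SE 0.07, adjusted p = 0.941). The stalk genes did not pass the test in TruSeq, with log2 fold changes of -0.03 for RPLP0, 0.04 for RPLP1 and 0.08 for RPLP2 (SE 0.12, 0.14 and 0.13). RPSA, the small-subunit protein also known as the laminin receptor, was at 0.03 (SE 0.15). The largest positive values were those of RPS19, 0.24 (SE 0.21), RPL13A, 0.18 (SE 0.13), and RPL18, 0.17 (SE 0.14), and none of these passed the threshold.

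**Figure D4:**
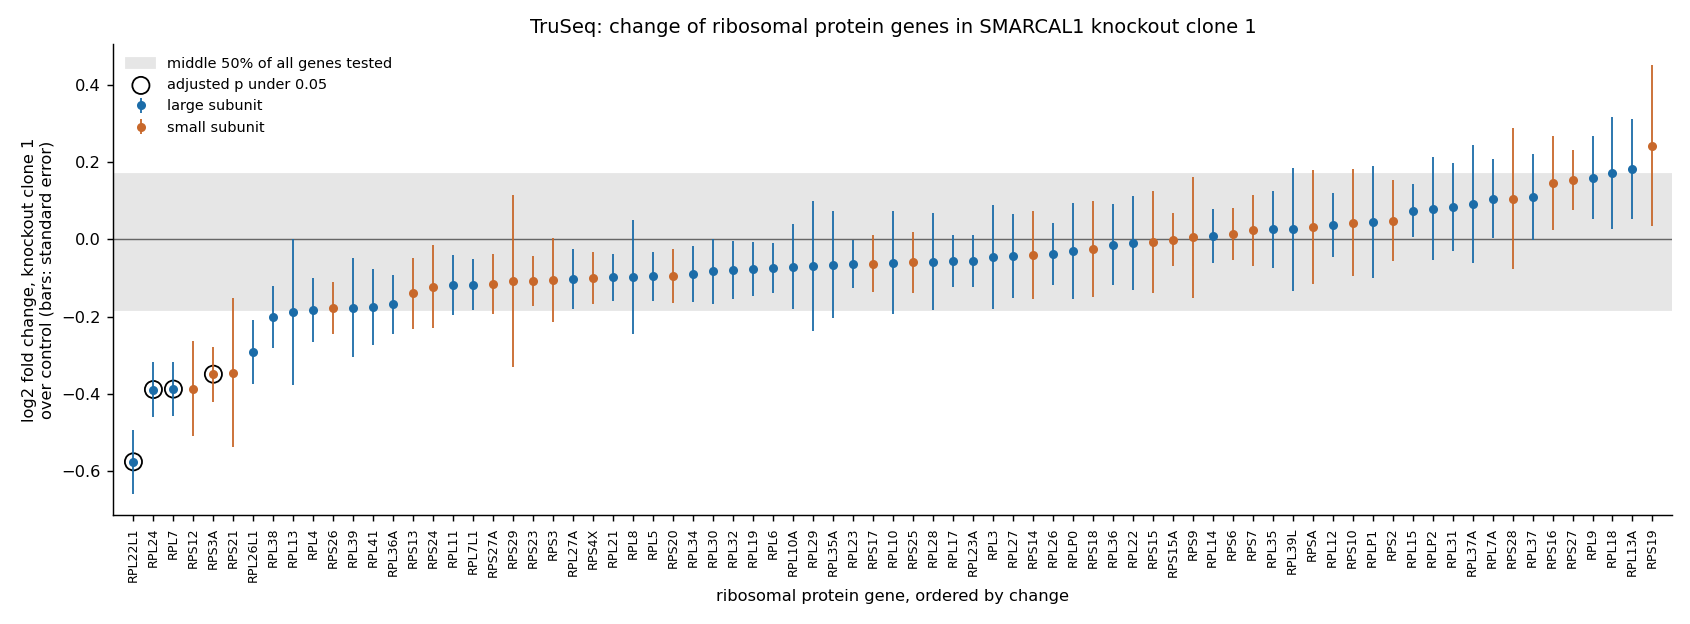
Log2 fold change of the members tested in TruSeq and reported here, knockout clone 1 over control, with standard errors, ordered by change. The shaded band is the middle 50% of all genes tested, circles mark members with an adjusted p under 0.05, and every circled point is below 0.

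With the side of the feature gap as a term in the edgeR fit, 27 of the 81 members fell and 0 rose, against 10.4% of all genes lower and 11.4% higher in that fit. Within the side of more features, with knockout replicate 1 and control replicates 1 and 2, 9 members were called lower and 0 higher, against 2.82% and 3.57% of all genes. Within the side of fewer features, with knockout replicates 2 and 3 and control replicate 3, 15 were called lower and 0 higher, against 6.36% and 7.42% of all genes. These within-side fits hold 1 library in an arm, whose spread is borrowed from the 2 libraries of the other arm, so their calls are no replicated test and the values are a description. The 4 members named above were below 0 on both sides, RPL22L1 at -0.62 on the side of more features and -0.61 on the side of fewer, and RPL24 at -0.44 and -0.40, on the log2 scale. RPS12, a small-subunit protein, had 680 CPM in the knockout library and 898 and 1000 CPM in the control libraries on the first side, and 862 and 814 CPM in the knockout libraries and 1181 CPM in the control library on the second. Its log2 fold change was -0.39 over all libraries (SE 0.12, edgeR adjusted p = 0.107) and -0.49 (SE 0.06) with the side as a term. RPS21, named after its values were seen, had 167 CPM in the knockout library against 224 and 265 CPM in the control libraries on the first side, and 250 and 248 CPM in the knockout against 356 CPM in the control on the second. It thus overlapped between the groups as a whole and separated within each side. What set the sides apart was not tested.

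The starts of the members carried the tract for which they are known. RefSeq start sites on GRCh38.p14 were matched for 66 of the 83 members. A tract was taken as a C at the first transcribed base followed by at least 4 C or T, read on the strand of the gene only. It was present at a start site of 47 members, 71.2% of those matched, against 5.14% of 27305 genes. By start site it was present at 57.3% of 82 sites of members and 4.07% of 35116 sites of all genes. The median TruSeq log2 fold change was -0.06 for the 47 members with the tract and -0.07 for the 18 tested members without it. Of the members with the tract 3 fell, and of those without it 0 fell, where 2.31% of all genes fell, and the difference was not tested. The other members that fell, RPL7 among them, had no matched start site and are in neither count. The windows printed here show 15 bases before and 15 from the start for the TruSeq members with the largest falls that could be matched and for the genes high in PLATE-seq clone 3, with the tract in capitals. They lie at chr3:170870181-170870210 (RPL22L1, minus strand), chr3:101686704-101686733 (RPL24, minus), chr4:151099613-151099642 (RPS3A, plus), chr6:132814554-132814583 (RPS12, plus), chr12:120201097-120201126 (RPLP0, minus), chr11:809952-809981 (RPLP2, plus) and chr19:8321481-8321510 (RPS28, plus). RPS28 has no tract at its RefSeq start.
RPL22L1: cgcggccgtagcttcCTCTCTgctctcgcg
RPL24: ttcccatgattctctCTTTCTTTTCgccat
RPS3A: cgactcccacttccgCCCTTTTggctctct
RPS12: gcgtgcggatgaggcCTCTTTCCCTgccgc
RPLP0: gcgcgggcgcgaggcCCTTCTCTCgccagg
RPLP2: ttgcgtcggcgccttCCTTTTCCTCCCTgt
RPS28: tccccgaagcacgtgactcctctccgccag

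In PLATE-seq neither knockout clone 1 nor clone 2 gave a change of a member past the threshold. On simulated data the PLATE-seq test of the clone mean recovered 7.0% of genes changed by 1 on the log2 scale. The absence of calls therefore says little about changes as small as those in TruSeq. Of 74 members tested, 0 rose and 0 fell in clone 1 and in clone 2 (edgeR, adjusted over 8595 genes; DESeq2 also 0), where 0.0% of all genes rose or fell in clone 1 and 0.0116% rose and 0.0233% fell in clone 2. At an unadjusted p under 0.05, 3 members were higher and 5 lower in clone 1, against 4.62% and 3.57% of all genes. In clone 2 these were 2 higher and 7 lower, against 4.94% and 4.71% of all genes. The member median was -0.01 in clone 1 and -0.14 in clone 2, where 52 of 74 were below 0 and 27 had both libraries below both control libraries, against 18.8% of all genes. For the mean of the 3 clones 0 members were called (DESeq2 0), where 0.0465% of all genes rose and 0.151% fell, and 4 were higher and 4 lower at an unadjusted p under 0.05, against 5.07% and 5.04% of all genes. In 4 members, among them RPL22L1, RPL13 and RPL6, all 6 knockout libraries lay below both control libraries, against 5.48% of all genes. In 6 members, RPL19, RPL22, RPL26L1, RPS16, RPS20 and RPS27, all 6 lay above, against 6.52% of all genes. RPL6 rested on few counts, 7 to 25 in the knockout libraries and 39 and 12 in the control. RPL22 had 15 to 56 counts in the knockout libraries and 8 and 6 in the control. The change differed among the clones for 3 of 74 members, RPS28, RPLP2 and RPL7A (edgeR F test), where 0.71% of all genes passed. The clones were compared with the same control libraries, so their values are not independent of each other.

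RPL22L1 had 145 and 133 CPM in clone 1, 129 and 110 CPM in clone 2, 133 and 148 CPM in clone 3, and 193 and 219 CPM in the control of PLATE-seq. All 6 knockout libraries lay below both control libraries, with a log2 fold change of the clone mean of -0.64 (SE 0.22), which did not pass the threshold (edgeR adjusted p = 0.272). The siRNA libraries differed less, at 161 and 141 CPM with siRNA_SMARCAL1, both just below the 173 and 162 CPM with siRNA_Control (-0.15, SE 0.27, edgeR adjusted p = 0.963). RPL24 overlapped between the groups in PLATE-seq, with 115 and 132 CPM in clone 1, 78.3 and 108 CPM in clone 2, 163 and 151 CPM in clone 3, and 153 and 130 CPM in the control. RPL7 and RPS3A, which fell in TruSeq, had too few PLATE-seq counts to be tested.

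Other members with large fitted changes in the clone mean rested on few counts. RPL21 had 2 and 1 counts in clone 1, 0 and 3 in clone 2, 25 and 21 in clone 3, and 3 and 25 in the control, with a log2 fold change of -2.85 (SE 0.91, edgeR adjusted p = 0.231). RPS27 had 14 and 8 counts in clone 1, 4 and 7 in clone 2, 9 and 9 in clone 3, and 0 and 1 in the control (2.89, SE 1.40, edgeR adjusted p = 0.494). RPL21 overlapped between the clones and the control, and RPS27 was higher in all 6 knockout libraries, but neither passed the threshold.

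RPS16, a small-subunit protein, varied widely between PLATE-seq libraries of the same group. It had 4411 and 1675 CPM in clone 1, 3842 and 1678 CPM in clone 2, 3653 and 4072 CPM in clone 3, and 1479 and 1629 CPM in the control. It had 4650 and 3826 CPM with siRNA_SMARCAL1 and 3302 and 1280 CPM with siRNA_Control. Libraries thus stood either near 1280 to 1678 CPM or at 3302 to 4650 CPM, and 3 of the 6 groups held both. The clone mean was higher by 1.04 (SE 0.33, edgeR adjusted p = 0.231) and the siRNA change was 0.89 (SE 0.38, edgeR adjusted p = 0.687), neither past the threshold. In TruSeq RPS16 was even, at 173 to 235 CPM.

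Clone 3 was the exception among the PLATE-seq clones, with 3 members that rose. They were RPS28, RPLP0 and RPLP2, of 74 tested, where 0.314% of all genes rose, and 0 fell, where 0.361% of all genes fell. RPS28, a small-subunit protein at the messenger RNA exit, had 85.0 and 685 CPM in clone 3 and 14.2 and 40.6 CPM in the control, on 193 and 2274 counts against 13 and 33 (log2 fold change 3.83, SE 0.65, edgeR adjusted p = 0.00608). RPLP0, the base of the stalk, had 190 and 1051 CPM in clone 3 and 77.8 and 180 CPM in the control (2.28, SE 0.49, edgeR adjusted p = 0.0334). RPLP2, an acidic stalk protein, had 734 and 1222 CPM in clone 3 and 375 and 492 CPM in the control (1.18, SE 0.27, edgeR adjusted p = 0.0433). RPS28 (ENSG00000233927.4, chromosome 19, 8321158 to 8323340) overlaps KANK3 and NDUFA7 on the other strand, and RPLP2 (ENSG00000177600.8, chromosome 11, 809647 to 812880) overlaps PIDD1, so their counts share that uncertainty. RPLP0 (ENSG00000089157.15) lies on chromosome 12 at 120196686 to 120201235. For all 3 genes replicate 2 of clone 3 was the highest of the 12 libraries, and replicate 1 lay nearer the control. Without replicate 2 none of the 3 passed the threshold, with log2 fold changes of 1.65 for RPS28, 0.57 for RPLP0 and 0.77 for RPLP2, and 0 members were called. Without control replicate 1, and with only clone 3 and the control in the fit, the count was also 0. RPLP1, the other acidic stalk protein, had 200 and 268 CPM in clone 3 and 203 and 193 CPM in the control (0.24, SE 0.30, edgeR adjusted p = 0.814).

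The rise in clone 3 was broader than these genes but uneven. The member median was 0.32, against 0.02 over all genes, and 17 of 74 members were below 0. At an unadjusted p under 0.05, 19 members were higher and 3 lower, against 6.57% and 5.36% of all genes. For 28 members both clone 3 libraries were above both control libraries, against 22.8% of all genes. Without replicate 2 of clone 3 the median was 0.08. That library also had the lowest mitochondrial share, 24.6%, the largest total, 3068887 counts, and the most features, 13307, and the part these played in the result was not tested.

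**Figure D5:**
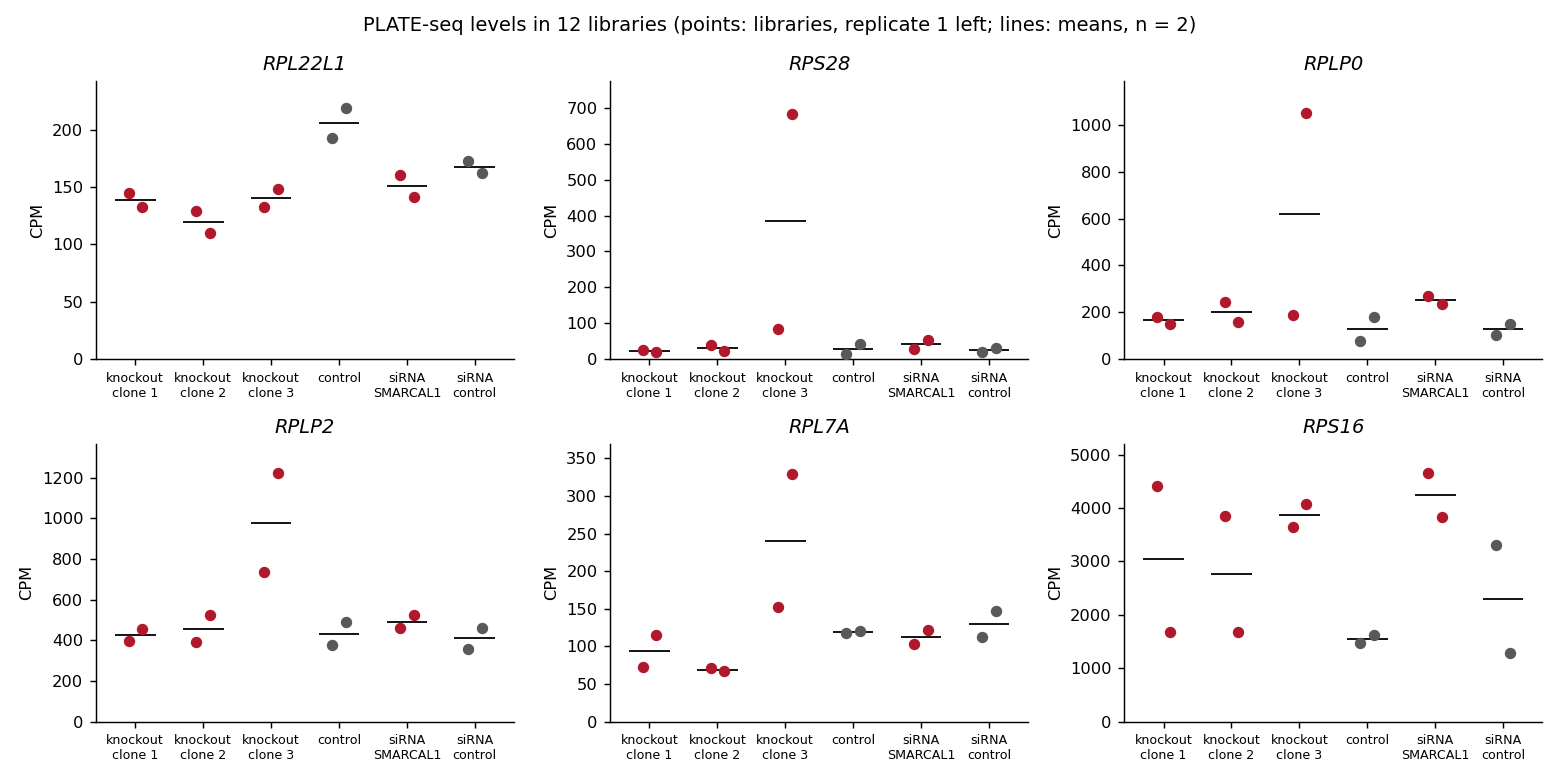
CPM of 6 members in the 12 PLATE-seq libraries, with points for libraries and lines for the means of 2. RPL22L1 is lower in all 6 knockout libraries than in both control libraries, RPS28, RPLP0, RPLP2 and RPL7A are highest in replicate 2 of clone 3, and RPS16 takes a high or a low level within a group.

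The siRNA comparison gave no member past the threshold. Of 74 members 0 rose and 0 fell (edgeR; DESeq2 0), where 0.0% of all genes rose or fell, and 3 members had an unadjusted p under 0.05, all higher, against 2.85% of all genes higher and 3.48% lower. These were RPS16, RPLP0 and RPLP1. RPLP0 had 271 and 235 CPM with siRNA_SMARCAL1 and 103 and 152 CPM with siRNA_Control, without overlap (log2 fold change 0.99, SE 0.48, edgeR adjusted p = 0.789). RPLP1 had 284 and 267 CPM with siRNA_SMARCAL1 and 143 and 210 CPM with siRNA_Control (0.64, SE 0.30, edgeR adjusted p = 0.780). The member median was 0.05, against -0.02 over all genes, and was -0.04 with library totals in place of TMM scaling. The clone mean effect minus the siRNA effect was tested directly and 0 members passed (edgeR; DESeq2 0), where 0.0% of all genes passed. At an unadjusted p under 0.05 only RPS2, a small-subunit protein, was higher and 0 members were lower, against 4.53% of all genes higher and 3.23% lower. In siRNA_Control against the control of the clones 0 members rose or fell (edgeR; DESeq2 0), where 0.0116% of all genes rose and 0.0% fell. There 2 members, RPL22 and RPL41, were higher and 1, RPL6, was lower at an unadjusted p under 0.05, against 4.19% of all genes higher and 3.58% lower.

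Genes that make, regulate or resemble the cytosolic ribosome were set beside the members. For these lists, as for the members, 2.31% of all genes fell and 3.96% rose in TruSeq, the median over all genes was -0.004, and 50.7% of all genes were below 0. Of 61 ribosome biogenesis factors tested in TruSeq 9 fell and 0 rose in knockout clone 1, with a median log2 fold change of -0.16 and 53 of 61 below 0. EBNA1BP2, a nucleolar factor of large-subunit assembly, averaged 187 ± 4.29 CPM in the knockout against 242 ± 2.54 CPM in control libraries (mean ± SD of 3). Its log2 fold change was -0.37 (SE 0.06, edgeR adjusted p = 0.00860). DKC1, the pseudouridine synthase of ribosomal RNA, averaged 208 ± 5.33 CPM in the knockout and 265 ± 8.62 CPM in the control (-0.35, SE 0.06, edgeR adjusted p = 0.0137). The other named factors, NOLC1 and NOP2, fell by 0.30 and 0.29 on the log2 scale. Of 78 mitochondrial ribosomal protein genes 5 fell and 0 rose, with a median of -0.12 and 61 below 0, led by MRPS22 at -0.47 (SE 0.07) and MRPL39 at -0.46 (SE 0.07), both with an edgeR adjusted p of 0.00928. Of 27 other genes with TOP messenger RNAs 0 rose and 0 fell, with a median of -0.08 and 19 below 0. In PLATE-seq EBNA1BP2 had means of 157, 143 and 153 CPM in clones 1, 2 and 3, and 143 CPM in the control. DKC1 had 269, 265 and 335 CPM there, against 342 CPM. NOLC1 had 298, 308 and 353 against 424 CPM, and NOP2 209, 184 and 230 against 197 CPM. MRPS22 had 4.57, 5.62 and 5.46 against 3.49 CPM, and MRPL39 7.13, 3.07 and 3.79 against 6.56 CPM. Both rested on few counts, since a count of 3 was worth 0.978 to 3.71 CPM in PLATE-seq.

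Among 15 growth regulators, 2 fell and 0 rose in TruSeq, where 2.31% of all genes fell and 3.96% rose. MYC, which drives transcription of ribosome genes, averaged 117 ± 3.26 CPM in the knockout against 148 ± 7.34 CPM in control libraries (mean ± SD of 3), and fell by 0.34 on the log2 scale (SE 0.07, edgeR adjusted p = 0.0190). In PLATE-seq MYC was counted far lower, at 6.64 ± 4.39, 18.4 ± 0.191 and 31.9 ± 18.3 CPM in clones 1, 2 and 3 and 4.04 ± 0.491 CPM in control libraries (mean ± SD of 2), with no call in any comparison. The clone means were above the control mean, but a count of 3, taken as the floor, was worth 3.37 and 3.71 CPM in the control libraries. The direction of MYC in PLATE-seq is therefore uncertain. RPS6KB2, an S6 kinase, averaged 13.6 ± 0.992 CPM in the knockout and 21.9 ± 2.08 CPM in the control (-0.69, SE 0.11, edgeR adjusted p = 0.00990). Of 12 genes of the ribosomal stress and p53 response, CDKN1A, the cell cycle inhibitor p21, rose by 0.97 (SE 0.13, edgeR adjusted p = 0.00464) and GADD45A, a growth arrest gene, fell by 0.56 on the log2 scale (SE 0.07, edgeR adjusted p = 0.00270). TAF1C was the only 1 of 16 RNA polymerase I genes past the threshold, at -0.48 (SE 0.10). Of 12 snoRNA host genes SNHG12 rose by 0.55 and SNHG1 fell by 0.43 on the log2 scale. None of 13 mitochondrially encoded messenger RNAs passed the threshold in the TruSeq edgeR fit, though all 13 were below 0, with a median of -0.34. Their summed level went with the side of the feature gap, on which the groups are unevenly spread. It was 6706 CPM in knockout replicate 1, and 7205 and 5303 CPM in control replicates 1 and 2. On the side of fewer features it was 3357 and 2718 CPM in knockout replicates 2 and 3, and 2735 CPM in control replicate 3. Of the marker genes tested in TruSeq, 4 of 10 basal genes rose and 2 fell, against the same 3.96% and 2.31% of all genes, while 0 of 7 luminal, 0 of 4 leukocyte and 0 of 5 endothelial genes passed. The part of these in the members' result was not tested.

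In PLATE-seq few genes of any kind passed the threshold, so counts of calls say little about the lists there. The median of 58 ribosome biogenesis factors was -0.25 in the clone mean, with 40 below 0, and -0.19, -0.12 and -0.21 in clones 1, 2 and 3. It was -0.26 in the siRNA comparison, with 44 of 58 below 0. The median of 68 mitochondrial ribosomal protein genes was -0.09 in the clone mean and -0.02 in the siRNA comparison, and that of 24 other TOP genes 0.09 and 0.07. Over all genes tested these medians were -0.006 and -0.02. NSA2, an assembly factor of the large subunit, fell in the mean of the clones, with a log2 fold change of -1.70 (SE 0.26, edgeR adjusted p = 0.00920), with 71.7 ± 21.8, 103 ± 27.8 and 58.7 ± 6.38 CPM in clones 1, 2 and 3 and 247 ± 124 CPM in control libraries (mean ± SD of 2). Its log2 fold change in clone 3 was -2.07 (SE 0.35). It was the only 1 of 58 biogenesis factors tested in PLATE-seq to pass the threshold there, where 0.0465% of all genes rose and 0.151% fell. MRPL34, of the mitochondrial ribosome, rose in clone 3 by 1.58 (SE 0.38, edgeR adjusted p = 0.04999), 1 of 68 tested, where 0.314% of all genes rose and 0.361% fell. NACA, a nascent chain binding protein with a TOP messenger RNA, averaged 165 ± 52.4, 221 ± 44.0 and 729 ± 593 CPM in clones 1, 2 and 3 and 258 ± 62.8 CPM in control libraries (mean ± SD of 2). In the edgeR F test among the 3 clones NACA had an adjusted p of 0.00760 and GADD45A one of 0.0433, where 0.71% of all genes passed. No gene of the lists named here passed the threshold in clone 1, clone 2 or the siRNA comparison of PLATE-seq, in which 0, 3 and 0 of 8595 genes passed in all.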

How the data were processed

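The deposited tables hold raw read counts for each gene symbol. The submitters' processing notes name STAR, HTSeq and the build hg38, while versions, annotation and strand setting are not given in the sources used here. The TruSeq table has 57120 entries. The PLATE-seq table has 44267 besides 92 spike-in entries, which were left out of totals and tests. Their share was at most 0.0534% of a library. Members, gene lists and comparisons were chosen with earlier results of these data known.

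Counts were tested with edgeR 4.0.16 (R 4.3.3): filterByExpr, TMM scaling, the quasi-likelihood F test and Benjamini-Hochberg adjustment across every gene in the fit (threshold 0.05). The TruSeq fit held 6 libraries and tested 81 members of 17371 genes. The PLATE-seq fit held all 12 libraries, which share 1 estimate of spread, and tested 74 members of 8595 genes. The 9 members not tested in PLATE-seq were RPL10L, RPL17, RPL3, RPL36A, RPL3L, RPL7, RPL9, RPS26 and RPS3A. CPM were computed from totals multiplied by TMM factors, and values per library are printed with no pseudocount. A count of 3, taken as the floor, was worth 0.156 to 0.292 CPM in TruSeq and 0.978 to 3.71 CPM in PLATE-seq, for counting error only. Scripts were tested on simulated data. Tables were read with Python 3.11.15 and pandas 2.3.3 and drawn with matplotlib 3.10.9.

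Genes named are SMARCAL1, every member past the threshold, the 5 largest rises and falls in TruSeq and in the clone mean, the 5 highest members of each assay, the paralogs, RPL5, RPL11, RPS6, RPSA, the stalk genes, and at most 4 genes past the threshold per list and comparison. Members named for their levels between the assays, for overlap between groups or in clone 3, and RPS21, were chosen after their values were seen. Alternatives were DESeq2 1.42.0, other scalings, no filter, addition of pseudogene entries, only the groups compared, the replicate number as a block, the side of the feature gap, and omission of each library. Start sites came from RefSeq (GRCh38.p14), and gene coordinates from GENCODE release 29. Some members meeting these rules are counted in the totals but not reported here.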

Additional observations from a re-analysis of the deposited data

Results flagged for a closer look

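The change against the control differed among the 3 PLATE-seq knockout clones for 3 of 74 members (edgeR F test with 2 degrees of freedom, adjusted over 8595 genes), where 0.71% of all genes passed. All 3 clones were set against the same control libraries. RPS28 had an adjusted p of 0.000311, with 25.9 and 18.4 CPM in clone 1, 38.1 and 21.3 CPM in clone 2, 85.0 and 685 CPM in clone 3, and 14.2 and 40.6 CPM in the control. RPLP2 had an adjusted p of 0.0267 in that edgeR test, with 396 and 455 CPM in clone 1, 390 and 523 CPM in clone 2, 734 and 1222 CPM in clone 3, and 375 and 492 CPM in the control. RPL7A, a large-subunit protein with 37 entries named as pseudogenes, had an edgeR adjusted p of 0.011, with 73.0 and 115 CPM in clone 1, 71.1 and 67.0 CPM in clone 2, 152 and 329 CPM in clone 3, and 118 and 121 CPM in the control. Its log2 fold changes were -0.34 in clone 1, -0.79 in clone 2 and 1.01 in clone 3. In all 3 genes clone 3 was the highest clone. Without replicate 2 of clone 3 the test called 0 members, and without its replicate 1 it called 11.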

How the results depend on the processing

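Of the alternatives tried, none reversed a result that carried a test, but some left no member past the threshold in TruSeq, in clone 3 or among the clones. Except for the feature gap fits given above, counts under the alternatives come without the share of all genes called in the same fit. A higher count therefore does not show that the members changed more than other genes. In TruSeq 8 members were called with the replicate block, 27 with the side of the feature gap as a term, 9 within the side of more features, 15 within the side of fewer, and 0 to 4 when each library was left out in turn, against 5. In the clone mean of PLATE-seq no filter gave 2 and the omissions 0 to 1, against 0. Clone 1 gave 1 with no filter and 0 to 1 over the omissions, clone 2 gave 1 and siRNA 1 with no filter, against 0 each. Clone 3 gave 5 with DESeq2, 9 with no filter, 0 with only the groups compared and 0 to 8 over the omissions, against 3. The test among clones gave 10 with DESeq2, 13 with no filter, 1 with only the groups compared and 0 to 11 over the omissions, against 3. The share of clone 2 differed from the control by -0.539 percentage points, by -0.799 without mitochondrially encoded genes in the totals, and by -0.642 without RPL37, a choice made after seeing the data. The causes were not tested, apart from the smaller number of samples where libraries were left out. The medians of clone 1 in PLATE-seq, the clone mean and the siRNA comparison lay near 0 and took either sign. Without a filter RPS3A no longer passed the threshold in TruSeq.

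Same-numbered TruSeq libraries deviated together with correlations of 0.58, -0.27 and 0.38, so the replicate numbers were not taken as pairs, and the replicate block left the PLATE-seq counts of called members as they were. Adding pseudogene entries could not change PLATE-seq, which has 0 such entries. At PLATE-seq depth members with few counts could not be tested.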
